A study of Mus musculus with 9 samples.

Results

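Retinoid metabolism and retinoid binding proteins were followed through the differentiation of 3T3-L1 cells, a mouse embryonic fibroblast line that accumulates lipid and turns into adipocytes after hormonal induction. The set comprised 9 of the 19094 genes listed in at least 1 sample, taken by symbol: Rbp4, Stra6, Adh1, Rdh10, Dhrs3, Aldh1a1, Aldh1a3, Crabp1 and Crabp2. RNA sequencing was performed on day 0, day 4 and day 8, with 3 samples per day. Total expected counts, the read numbers assigned to genes, ranged from 18216114 to 20452144 per sample.

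All 9 samples carried the same cell line and no genetic change. The day 0 cells were confluent preadipocytes in serum-containing medium before induction. The day 4 cells had received dexamethasone, IBMX (a phosphodiesterase inhibitor) and insulin for the first 2 days and insulin alone afterwards, and the day 8 cells stayed in insulin-containing medium until collection. The methods describe cells pooled from each stage and samples prepared as RNA mixtures, and nothing states that the 3 samples of a day came from separate cultures, so the p-values measure the spread between these samples, which may be technical. The labels name every sample adipocytes, day 0 included. On day 0 the 7 adipocyte markers examined summed to 28.5 ± 1.56 FPKM (read fragments scaled by transcript length and sequencing depth, mean ± SD, n = 3) and Adipoq, the adiponectin gene, stood at 0.503 ± 0.194 FPKM. The marker sum reached 5625 ± 1044 FPKM on day 4 and 6971 ± 248.2 FPKM on day 8, with Fabp4, a fatty acid carrier, the most abundant of the 7 on both days. The 7 preadipocyte and fibroblast markers summed to 7856 ± 180.5, 6111 ± 273.7 and 7611 ± 138.0 FPKM at the 3 days, a sum led by Vim, Col1a1 and Col1a2 whose members differed in direction. Dlk1, a preadipocyte gene, had 827.6 ± 33.6, 180.8 ± 13.9 and 415.3 ± 5.56 FPKM, and Vim (vimentin) had 2541 ± 83.3, 2054 ± 84.5 and 1425 ± 55.6 FPKM. The collagen gene Col1a1 had 1540 ± 39.0, 1299 ± 59.0 and 2270 ± 18.3 FPKM. Col1a2 and Thy1, like Dlk1, Vim and Col1a1, had a lower mean on day 4 than on day 0. Pdgfra was higher on day 4, with 59.6 ± 2.66, 102.1 ± 6.14 and 65.7 ± 1.41 FPKM. S100a4 had 826.2 ± 103.8, 839.0 ± 27.45 and 711.9 ± 38.9 FPKM. In bulk samples, a change in the number of cells of a type and a change in RNA per cell cannot be told apart, and the part of these marker shifts in the results below was not tested.

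Retinol (vitamin A) travels in blood on retinol binding protein, encoded by Rbp4, and enters some cells through the receptor STRA6. Inside the cell retinol is oxidised reversibly to retinal, a step run forward by alcohol and retinol dehydrogenases such as ADH1 and RDH10 and backward by the retinal reductase DHRS3. Retinal dehydrogenases of the ALDH1A family then make retinoic acid irreversibly, CRABP1 and CRABP2 bind it in the cytosol, and the nuclear receptors RAR and RXR read it out on target genes. In adipose tissue this pathway is known for the storage of retinyl esters and for effects of retinoic acid and retinal on adipocyte differentiation.

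Of the 5 members with enough counts for a test, Adh1, Aldh1a1 and Dhrs3 rose from day 0 to day 4. Adh1 and Aldh1a1 peaked on day 4 and were lower on day 8, whereas the late-phase difference of Dhrs3 did not pass the test. Rdh10 and Crabp2 stayed within 2-fold of their day 0 level, and Rbp4, Stra6, Crabp1 and Aldh1a3 had at most 8 expected counts in any sample. Calls came from the edgeR quasi-likelihood test on rounded expected counts, with p-values adjusted by Benjamini-Hochberg over 13154 tested genes, and required an adjusted p under 0.05 and a change above 2-fold. Adh1, Aldh1a1, Dhrs3, Rdh10 and Crabp2 passed the filter on low counts, each with at least 10 counts in all 9 samples, and the remaining 4 members were not tested. In the early phase (day 4 versus day 0), 3 of the 5 tested members were called upregulated, where 9.77% of all tested genes were, and 0 were called downregulated, where 7.98% of all tested genes were. In the late phase (day 8 versus day 4), 0 were called upregulated against 4.24% of all tested genes and 2 were called downregulated against 2.81%. Over the whole process (day 8 versus day 0), 3 were called upregulated against 10.3% and 0 downregulated against 7.70%. Beside these edgeR counts of 0, DESeq2, the edgeR exact test and limma also called 0 members, and at an unadjusted p under 0.05 there was 1 gene lower in the early phase (Rdh10), 0 higher in the late phase and 0 lower over the whole process. At the adjusted p threshold alone, 3 members were higher and 1 lower in the early phase (35.5% and 33.7% of all tested genes), 0 higher and 2 lower in the late phase (22.5% and 22.7%), and 3 higher and 0 lower over the whole process (34.8% and 36.2%). The median log2 fold change of the 5 tested members was 2.37, 0.12 and 2.14 in the early phase, late phase and whole process, and that of all tested genes was 0.02, -0.01 and -0.02. The 3 comparisons share their day 0, day 4 or day 8 samples and are not independent of each other.

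The summed level of the 9 members was 16.2, 15.8 and 16.2 FPKM in the day 0 samples, 103.5, 103.0 and 114.2 FPKM on day 4, and 56.3, 66.2 and 62.8 FPKM on day 8. The 3 days did not overlap in this sum, with day 4 the highest.

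**Figure D1:**
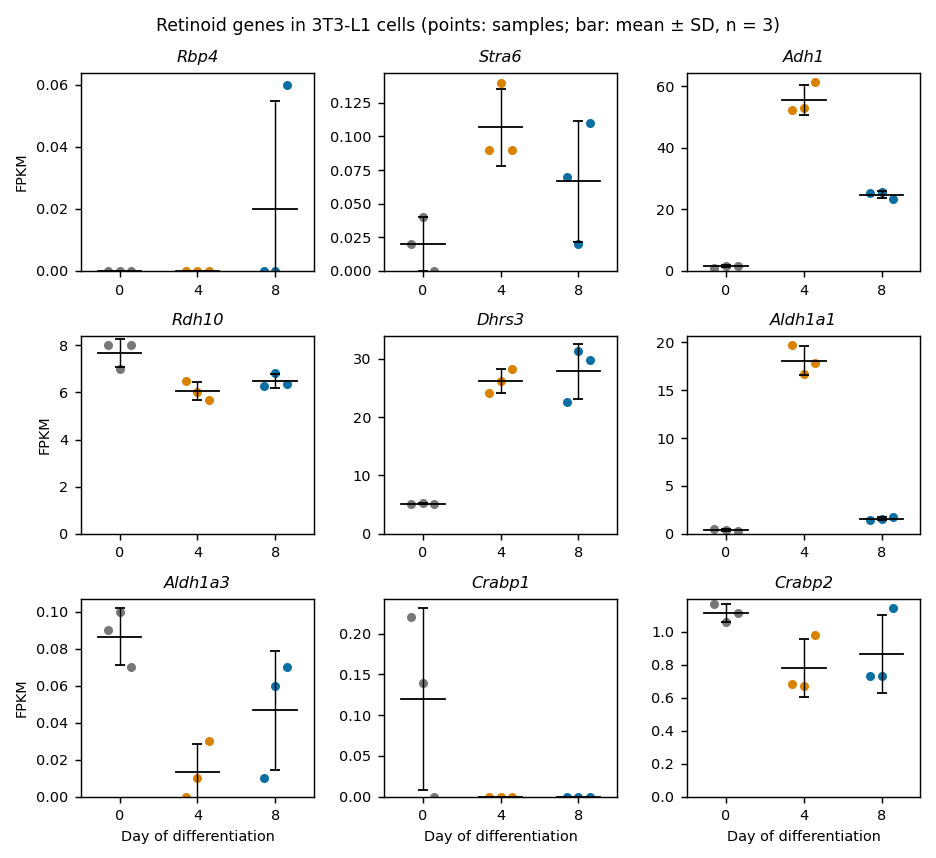
Level of each of the 9 members (vertical axes, FPKM, linear and scaled per gene) on day 0, 4 and 8. Points are the 3 samples of a day and the bars mean ± SD. Adh1 and Aldh1a1 are highest on day 4, Dhrs3 is high on day 4 and day 8, and Rbp4, Stra6, Crabp1 and Aldh1a3 stay below 0.3 FPKM in every sample.

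Of the carriage and uptake genes, Rbp4 (gene ID 19662) was listed in a single sample, with 1 expected count and 0.06 FPKM in day 8 replicate 3, and had no row in the other 8 samples, which stands for 0. A count of 0 allows up to 3 counts, equal to 0.147 to 0.165 CPM (counts scaled by sequencing depth) over the 9 samples. Stra6 (20897) had 1, 2 and 0 expected counts on day 0, 5, 8 and 5 on day 4, and 4, 1 and 6 on day 8. In FPKM these were 0.02, 0.04 and 0 on day 0, 0.09, 0.14 and 0.09 on day 4, and 0.07, 0.02 and 0.11 on day 8. The 3 day 4 samples lay above the 3 day 0 samples, and the day 8 samples overlapped both. The liver is the chief source of circulating RBP4, and the 4 hepatocyte markers with a row (Alb, Apoa1, Serpina1a and Hnf4a) each had a mean below 1 FPKM on every day.

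Adh1 (11522), a class I alcohol dehydrogenase that oxidises retinol to retinal, showed the highest level of the 9 members on day 4. It had 1.1, 1.77 and 1.65 FPKM in the day 0 samples, 52.33, 53.14 and 61.29 FPKM on day 4, and 25.2, 25.8 and 23.48 FPKM on day 8. The 3 days did not overlap, and every day 8 sample lay between the day 0 and day 4 samples. Adh1 was upregulated 38.7-fold in the early phase (log2 fold change 5.27, SE 0.11, adjusted p = 1.49e-15) and downregulated in the late phase (log2 fold change -1.12, SE 0.07, adjusted p = 5.68e-09). On day 8 it was still 17.8-fold above day 0 (log2 fold change 4.16, SE 0.12, adjusted p = 5.06e-14). Of the 50-base stretches of its transcripts, 0.18% recur in another gene.

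Rdh10 (98711), the retinol dehydrogenase needed for retinoic acid synthesis in the mouse embryo, was the most abundant member on day 0. Its levels were 8.02, 6.98 and 8.01 FPKM on day 0, 6.47, 6.02 and 5.68 FPKM on day 4, and 6.27, 6.83 and 6.37 FPKM on day 8. The day 4 samples were all below the day 0 samples, with a log2 fold change of -0.28 (SE 0.09, adjusted p = 0.0102), which passed the p threshold and not the 2-fold threshold. The late-phase difference of 0.14 (SE 0.09, adjusted p = 0.199) and the whole-process difference of -0.13 (SE 0.09, adjusted p = 0.184) on the log2 scale did not pass. The whole-process difference passed the p threshold, under 2-fold, with scaling by library size alone (-0.24, edgeR, adjusted p = 0.0178) and in limma on log2(FPKM + 1) (-0.21, adjusted p = 0.0186) and log2(FPKM + 0.1) (-0.24, adjusted p = 0.0186).

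Dhrs3 (20148), which reduces retinal back to retinol and is itself a retinoic acid target in many cells, rose in the early phase. The day 0 samples had 5.08, 5.27 and 5.14 FPKM, the day 4 samples 24.22, 26.24 and 28.25 FPKM, and the day 8 samples 22.53, 31.3 and 29.77 FPKM. All day 4 and day 8 samples were above all day 0 samples, while day 4 and day 8 overlapped, with day 8 replicate 1 the lowest of those 6. Dhrs3 was upregulated 5.15-fold in the early phase (log2 fold change 2.37, SE 0.11, adjusted p = 1.72e-11) and was 5.59-fold above day 0 on day 8 (log2 fold change 2.48, SE 0.11, adjusted p = 8.81e-12). The late-phase log2 difference was 0.12 (SE 0.09, adjusted p = 0.316), and without day 8 replicate 1 it was 0.24 (edgeR, adjusted p = 0.0182), under 2-fold.

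Aldh1a1 (11668), a retinal dehydrogenase that makes retinoic acid, rose and then fell. It must be read together with Aldh1a7 (26358), a closely related rodent gene, because the counting method divided shared reads between the pair. Both are on chromosome 19 and their starts in RefSeq lie 126 kb apart. The 2 promoters are shown because they are nearly the same sequence in front of the pair of genes whose levels parted in the late phase. The windows are 100 bases long and end 10 bases before the start (RefSeq, build GRCm38.p6, 5′ to 3′ on the gene's strand), with Aldh1a1 at chr19:20601858-20601957 on the plus strand and Aldh1a7 at chr19:20727567-20727666 on the minus strand. Capitals mark the bases that differ.
Aldh1a1: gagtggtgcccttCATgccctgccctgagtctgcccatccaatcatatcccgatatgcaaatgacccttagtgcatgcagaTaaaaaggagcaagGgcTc
Aldh1a7: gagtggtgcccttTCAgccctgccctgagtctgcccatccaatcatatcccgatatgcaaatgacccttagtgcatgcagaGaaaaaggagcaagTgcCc

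The windows share 94 of 100 bases and differ at 6. The other of the 2 Aldh1a1 starts in RefSeq shares 30 of 100 bases with Aldh1a7. A CCAAT sequence begins 72 bases and the octamer ATGCAAAT 56 bases before the start in both genes. On both strands, CCAAT was found in 33.8% and ATGCAAAT in 1.6% of 32851 promoter windows of 250 bases. The nuclear receptor half-site letters AGGTCA were found in 0 of the 13 promoter windows given for 6 of the 9 members, against 14% of all windows. These matches describe letters in the windows and not binding.

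Aldh1a1 had 0.5, 0.39 and 0.26 FPKM in the day 0 samples, 19.69, 16.73 and 17.86 FPKM on day 4, and 1.46, 1.5 and 1.75 FPKM on day 8. The days did not overlap, and day 8 lay far nearer to day 0 than to day 4. It was upregulated 49.0-fold in the early phase (log2 fold change 5.61, SE 0.15, adjusted p = 1.44e-14) and downregulated in the late phase to 0.0902 of its day 4 level (log2 fold change -3.47, SE 0.12, adjusted p = 1.54e-12). The whole-process change was 4.42-fold (log2 fold change 2.14, SE 0.21, adjusted p = 1.52e-07).

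Aldh1a7 had 1.43, 2.1 and 1.81 FPKM on day 0, 94.79, 102.87 and 103.9 FPKM on day 4, and 58.39, 59.51 and 59.17 FPKM on day 8, and exceeded Aldh1a1 in all 9 samples. It rose with Aldh1a1 in the early phase (59.4-fold, log2 fold change 5.89, SE 0.08, adjusted p = 1.72e-17). In the late phase it was 0.606 of its day 4 level (log2 fold change -0.72, SE 0.06, adjusted p = 3.03e-08), short of the 2-fold threshold. Over the whole process it was 36.0-fold higher (log2 fold change 5.17, SE 0.09, adjusted p = 9.46e-17).

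The share of Aldh1a1 in the counts of the pair was 25.7%, 15.4% and 12.5% on day 0, 17.0%, 13.8% and 14.5% on day 4, and 2.41%, 2.43% and 2.84% on day 8. The 3 day 8 samples lay below the other 6. The log2 ratio of Aldh1a1 to Aldh1a7 FPKM was -2.25 ± 0.66 on day 0, -2.48 ± 0.18 on day 4 and -5.24 ± 0.14 on day 8 (mean ± SD, n = 3). The late-phase difference in this ratio was -2.76, with a 2-sided exact permutation p = 0.1, the smallest that 3 against 3 samples can give. The early-phase difference was -0.23 (exact permutation p = 0.8). Neither gene had a whole expected count in any of the 9 samples, but the pair summed to whole numbers, within 0.015, in all 9, namely 81, 93 and 87 counts on day 0, 4741, 5011 and 4922 on day 4, and 2480, 2535 and 2493 on day 8. Of the 50-base stretches of the transcripts, 3.06% for Aldh1a1 and 7.49% for Aldh1a7 occur in the other gene. With the counts summed, the pair changed by -0.92 on the log2 scale in the late phase (edgeR, adjusted p = 3.61e-10), under 2-fold. Aldh1a1 supplied 13.8% to 17.0% of the pair's counts on day 4, so this sum mostly follows Aldh1a7. It cannot test the late fall of Aldh1a1 in the separated counts.

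**Figure D2:**
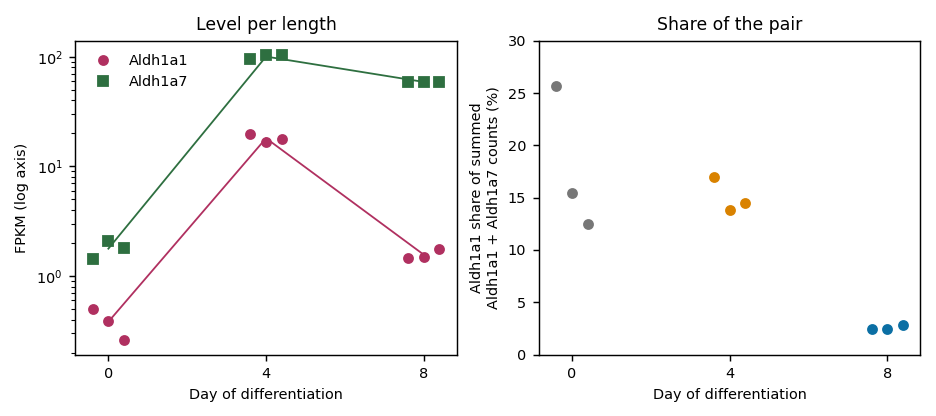
Aldh1a1 and its paralog Aldh1a7 on day 0, 4 and 8, with the 3 samples of a day as points. The levels in FPKM are on a log axis, and the share of Aldh1a1 in the summed counts of the pair is in percent. Both rise by day 4, and by day 8 the Aldh1a1 share lies between 2.41% and 2.84% in the 3 samples.

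Aldh1a3 (56847), another retinal dehydrogenase of the family, had 6, 6 and 5 expected counts on day 0, 0, 1 and 2 on day 4, and 1, 4 and 5 on day 8. Its levels were 0.07 to 0.1 FPKM on day 0, 0 to 0.03 FPKM on day 4 and 0.01 to 0.07 FPKM on day 8. The day 4 samples were below the day 0 samples, and day 8 overlapped both.

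Crabp1 (12903), a cytosolic retinoic acid binding protein, had 3, 2 and 0 expected counts on day 0 and no row in the 6 later samples. Crabp2 (12904), which hands retinoic acid to RAR in the nucleus, was low on all days. It had 1.17, 1.06 and 1.11 FPKM on day 0, 0.68, 0.67 and 0.98 FPKM on day 4, and 0.73, 0.73 and 1.14 FPKM on day 8, from 12 to 21 expected counts per sample. The day 4 samples were below the day 0 samples and day 8 overlapped both, with replicate 3 the highest of its day on day 4 and on day 8. The early-phase log2 difference of -0.46 (SE 0.30, adjusted p = 0.190), the late-phase difference of 0.21 (SE 0.32, adjusted p = 0.619) and the whole-process difference of -0.25 (SE 0.30, adjusted p = 0.468) did not pass. The early-phase difference did pass the p threshold in limma, with -0.25 on log2(FPKM + 1) (adjusted p = 0.0309) and -0.49 on log2(FPKM + 0.1) (adjusted p = 0.0370), both under 2-fold, and in no other alternative run.

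The order of the levels changed from day to day. On day 0 Rdh10 stood first at 7.67 ± 0.60 FPKM, followed by Dhrs3 at 5.16 ± 0.10 FPKM, and Adh1 at 1.51 ± 0.36 FPKM overlapped Crabp2 at 1.11 ± 0.06 FPKM. On day 4 Adh1 led with 55.6 ± 4.96 FPKM, then Dhrs3 with 26.2 ± 2.02 FPKM, Aldh1a1 with 18.1 ± 1.49 FPKM and Rdh10 with 6.06 ± 0.40 FPKM, and the ranges of these neighbours were separate. On day 8 Dhrs3 at 27.9 ± 4.69 FPKM and Adh1 at 24.8 ± 1.20 FPKM overlapped, followed by Rdh10 at 6.49 ± 0.30 FPKM and Aldh1a1 at 1.57 ± 0.16 FPKM (all mean ± SD, n = 3).

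**Figure D3:**
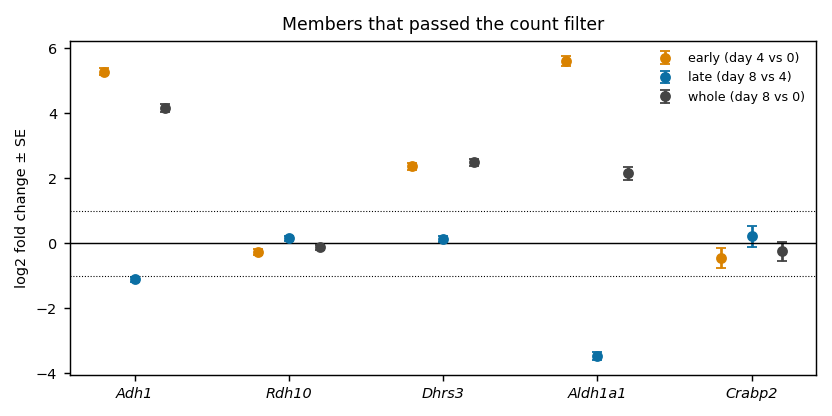
Log2 fold changes (vertical axis, points with standard errors) of the 5 tested members in the early phase, late phase and whole process, with dotted lines at 2-fold. Adh1 and Aldh1a1 lie above the upper line early and below the lower line late, and Dhrs3 is past 2-fold early and within it late.

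Another 53 genes of retinoid uptake, storage, conversion, breakdown and response were examined. Of these, 50 had a row in at least 1 sample and 34 were tested. Ttr, Sdr16c6 and Aldh1a2 had no row and are not analysed here. In the early phase 15 of the 34 (44.1%, background 9.77%) were called upregulated and 3 (8.82%, background 7.98%) downregulated. In the late phase 6 (17.6%, background 4.24%) were called upregulated and 0 downregulated, where 12 were lower at an unadjusted p under 0.05 in edgeR and DESeq2, the edgeR exact test and limma called 0. Over the whole process 16 (47.1%, background 10.3%) were called upregulated and 2 (5.88%, background 7.70%) downregulated. Lrp2, Bco1, Rdh12, Aox3 and Rxrg had under 10 counts in some samples and passed the filter through the days on which they were higher, so the counts that include them are descriptions. With at least 10 counts required in every sample, 12 were upregulated and 2 downregulated early, 4 and 0 late, and 12 and 1 over the whole process. The median log2 fold changes of the 34 genes were 0.73, 0.06 and 0.89 in the 3 comparisons. Several of these genes, such as Lpl, Lipe, Dgat1 and Fabp5, chiefly serve lipid metabolism, and the list was drawn up with earlier results of these data known.

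All 5 tested genes of storage and release were upregulated in the early phase, against 9.77% of all tested genes. Dgat1, whose enzyme also esterifies retinol, had 10.99, 10.87 and 11.06 FPKM on day 0 and means of 90.1 ± 12.7 and 112.0 ± 7.88 FPKM on day 4 and day 8 (early log2 fold change 3.10, adjusted p = 7.58e-14). Lipe, encoding the hormone-sensitive lipase that also hydrolyses retinyl esters, had 5.83 ± 0.167, 152.3 ± 22.4 and 249.0 ± 10.3 FPKM (early log2 fold change 4.72, adjusted p = 1.11e-15). Lpl and the carboxylesterase gene Ces1d changed by 3.50 and 2.96 on the log2 scale. Retsat, the retinol saturase gene, had 16.7 ± 0.905, 57.3 ± 1.39 and 51.5 ± 1.46 FPKM (early log2 fold change 1.84, adjusted p = 3.76e-14). Lrat, which encodes the main retinol-esterifying enzyme of liver and eye, was listed in 1 sample only, at 0.01 FPKM in day 4 replicate 3.

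Of the 4 tested uptake and binding genes, Fabp5 and Scarb1 were called upregulated and Lrp2 downregulated in the early phase (background 9.77% and 7.98%). Lrp2 had 30, 33 and 31 expected counts on day 0 and 0, 2 and 5 on day 4. It passed the filter on low counts through day 0, so its call is a description and its fold change is given no test. With at least 10 counts required in every sample Lrp2 was not tested, and limma with either pseudocount did not call it. Fabp5, whose product can carry retinoic acid, had 34.1 ± 1.26 FPKM on day 0, 307.9 ± 38.8 FPKM on day 4 and 330.2 ± 14.8 FPKM on day 8 (early log2 fold change 3.24, adjusted p = 1.07e-14), although 5.48% of its 50-base stretches recur in other genes. Bco1, which cleaves beta-carotene to retinal, had 0.25, 0.2 and 0.23 FPKM on day 0, 0.8, 1.41 and 1.82 FPKM on day 4, and 0.8, 0.62 and 0.63 FPKM on day 8. The day 4 and day 8 samples were all above the day 0 samples, while day 4 and day 8 met at 0.8 FPKM and overlapped in CPM. The late log2 difference of -0.95 was under 2-fold and is given as a description.

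Among the 11 other retinol and retinal enzymes tested, 1 was called upregulated (Rdh12) and 1 downregulated (Dhrs9) in the early phase (background 9.77% and 7.98%), and with at least 10 counts required in every sample Rdh12 was not tested. Rdh12, a retinal reductase best known from photoreceptors, had 0.17, 0.13 and 0.21 FPKM on day 0, 2.41, 2.79 and 2.71 FPKM on day 4, and 1.88, 2.03 and 2.09 FPKM on day 8. Its day 0 values rest on 6, 4 and 7 counts, and its fold change is given no test. Dhrs9, a retinol-oxidising dehydrogenase, showed the opposite course to Adh1, with 13.26, 12.92 and 12.53 FPKM on day 0, 5.57, 5.13 and 4.71 FPKM on day 4, and 9.2, 9.77 and 10.43 FPKM on day 8. The day 4 samples were the lowest and the day 8 samples lay between. Its early log2 fold change was -1.26 (adjusted p = 4.03e-10) and its late log2 fold change 0.98 (adjusted p = 4.79e-08), the latter just under 2-fold. Adh7, a class IV alcohol dehydrogenase active on retinol, had a level of 29.0 ± 1.64, 35.3 ± 2.65 and 19.5 ± 1.06 FPKM and was lower in the late phase by less than 2-fold (log2 fold change -0.81, adjusted p = 4.45e-08). Rdh5 was called upregulated in the late phase (log2 fold change 1.09, adjusted p = 0.00106), but 20.4% of its 50-base stretches are shared with an overlapping gene and its value is uncertain. Aox1, an aldehyde oxidase that can act on retinal, had 1.39 ± 0.0557, 4.03 ± 0.153 and 2.78 ± 0.0862 FPKM (upregulated 3.04-fold in the early phase, adjusted p = 9.73e-11).

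Cyp26b1, which degrades retinoic acid, fell while Adh1, Aldh1a1 and Dhrs3 rose. Its levels were 6.98, 6.35 and 5.65 FPKM on day 0, 2.51, 2.84 and 1.97 FPKM on day 4, and 1.42, 1.72 and 1.89 FPKM on day 8. All day 0 samples were above all later samples, and day 4 and day 8 were separate in FPKM but overlapped in CPM. The log2 fold change was -1.30 (SE 0.12, adjusted p = 9.32e-08) in the early phase, -0.50 (SE 0.14, adjusted p = 0.00875) in the late phase and -1.80 (SE 0.13, adjusted p = 3.03e-09) over the whole process. Cyp26a1 and Cyp26c1, its relatives, had means below 0.1 FPKM on every day and were not tested.

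**Figure D4:**
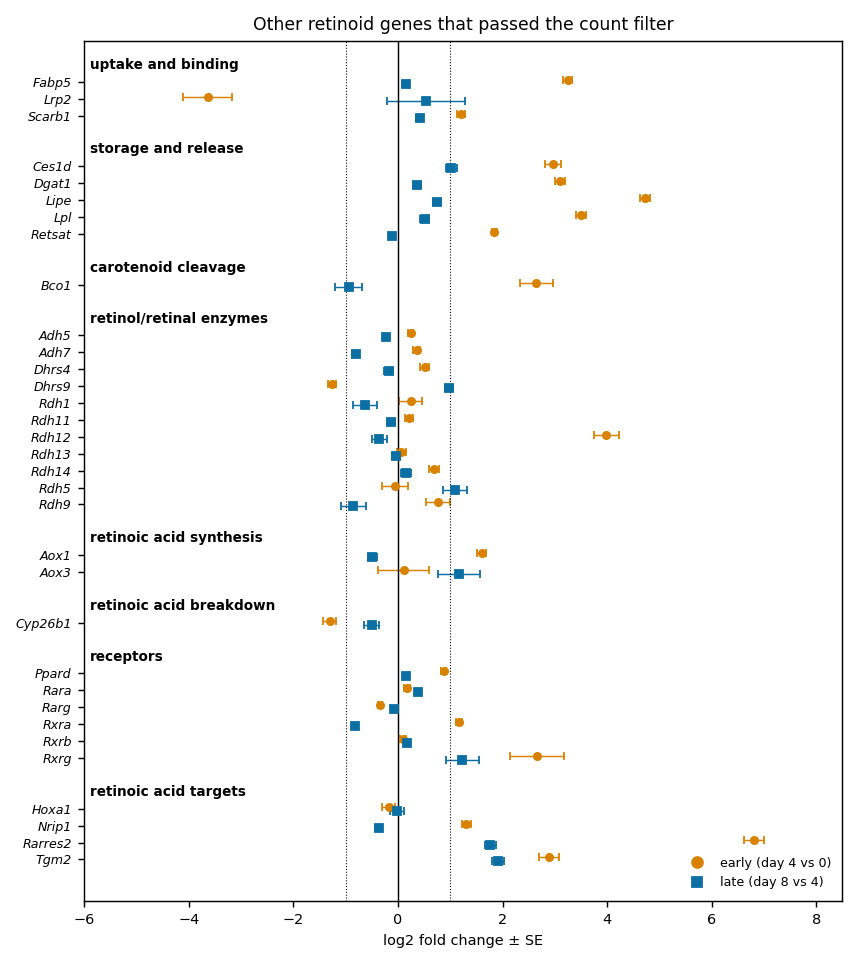
Log2 fold changes with standard errors (horizontal axis) of tested genes of the wider retinoid list, grouped by role, in the early phase (circles) and late phase (squares), with dotted lines at 2-fold. A gene of more than 1 role is drawn once. The 5 storage and release genes lie right of the upper line early, and Cyp26b1, Dhrs9 and Lrp2 lie left of the lower one.

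Of the 7 receptor genes, 6 were tested, and Rxra and Rxrg were called upregulated in the early phase (background 9.77%), Rxrg from at most 5 counts per sample on day 0. With at least 10 counts required in every sample, Rxra was called and Rxrg was not tested. Rxra, encoding the partner of RAR and of PPARγ, had 42.94, 44.38 and 45.1 FPKM on day 0, 89.51, 99.14 and 96.45 FPKM on day 4, and 51.32, 51.43 and 53.87 FPKM on day 8. All day 4 samples were above all others, and day 8 lay slightly above day 0. The early log2 fold change was 1.17 (SE 0.05, adjusted p = 5.64e-12) and the late one -0.81 (SE 0.05, adjusted p = 2.09e-09), under 2-fold. Rxrg had 0.11, 0 and 0.04 FPKM on day 0, 0.433 ± 0.0208 FPKM on day 4 and 1.01 ± 0.125 FPKM on day 8. It passed the filter on low counts through the later days, on which it was higher. Its upregulated calls in the 3 comparisons are therefore descriptions, and its fold changes are given no test. Ppard, encoding a nuclear receptor for fatty acids that has been described to respond to retinoic acid, had 30.4 ± 0.555, 53.2 ± 1.75 and 57.2 ± 1.64 FPKM on the 3 days. Its early log2 fold change of 0.88 (adjusted p = 1.03e-10) was under 2-fold and its whole-process log2 fold change of 1.03 (adjusted p = 1.41e-11) was called. Ppard and Rxrg were the receptors called upregulated over the whole process (background 10.3%), Rxrg again as a description. Ppard lost this call with scaling by library size alone and in limma with either pseudocount. Rxrg lost it in limma on log2(FPKM + 1). The tested retinoic acid receptors, Rara and Rarg, changed by less than 2-fold. Rarg was lower on day 4 than on day 0 (91.7 ± 0.896 against 69.7 ± 0.704 FPKM, log2 fold change -0.34, adjusted p = 4.28e-06), whereas Rara rose from 39.0 ± 1.84 FPKM on day 0 to 53.6 ± 1.20 FPKM on day 8 (log2 fold change 0.57, adjusted p = 1.50e-07). Rarb, a receptor gene that is itself induced by retinoic acid in many cells, had means between 0.0800 and 0.130 FPKM and was not tested.

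**Figure D5:**
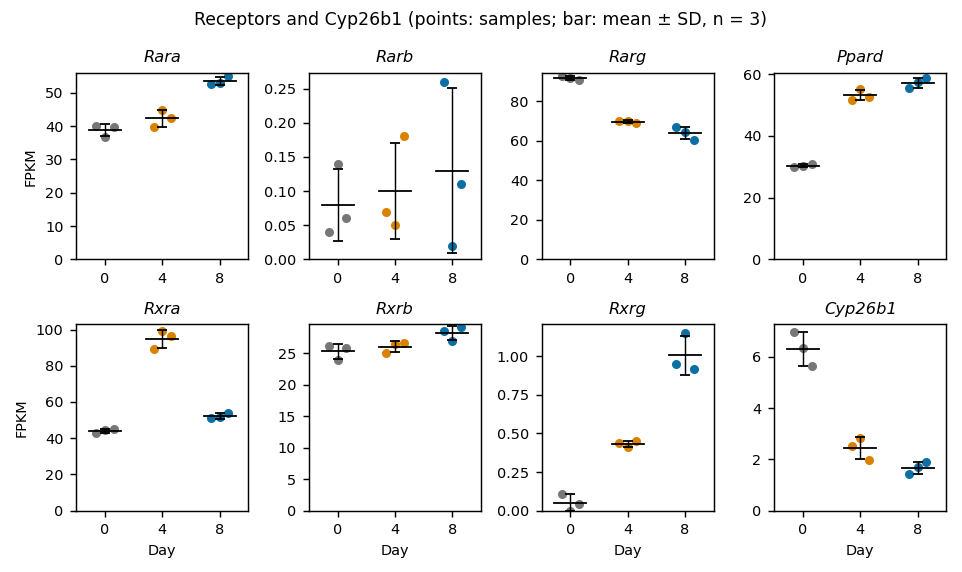
Levels in FPKM (vertical axes, linear and scaled per gene) of the receptor genes and of Cyp26b1 on day 0, 4 and 8. Points are the 3 samples of a day and bars mean ± SD. Rxra is highest in the day 4 samples, and Cyp26b1 falls from a mean of 6.33 FPKM on day 0 to 1.68 FPKM on day 8.

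Of 11 genes known as retinoic acid targets, 6 were tested, with 3 called upregulated (background 9.77%) and 1 downregulated (background 7.98%) in the early phase. Rarres2, encoding the adipokine chemerin, had 1.31 ± 0.374, 141.7 ± 27.0 and 467.1 ± 30.9 FPKM (early log2 fold change 6.81, adjusted p = 3.76e-14, late log2 fold change 1.77, adjusted p = 8.46e-10). Tgm2, a transglutaminase gene, had 0.267 ± 0.0907, 1.93 ± 0.162 and 7.04 ± 0.696 FPKM and was upregulated in both phases (log2 fold changes 2.89 and 1.92). Nrip1, a nuclear receptor corepressor, was upregulated in the early phase (log2 fold change 1.31, adjusted p = 2.42e-10), and Cyp26b1 is the gene called downregulated.

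Genes with profiles most like those of the members were sought by the root mean square difference of centred log2 CPM over the 9 samples. The 11419 candidates had an average log2 CPM of at least 1. They left out the members, the wider retinoid list, the cell type markers and Aldh1a7. For Adh1 the nearest were Glul (glutamine synthetase, 6.59, 284.5 and 81.5 FPKM at the 3 days), Rgr and Adamts15, at differences of 0.292, 0.302 and 0.308. Aldh1a1 was followed by Card14 at 0.364, E030003E18Rik at 0.484 and the acute-phase gene Orm3 at 0.650. Its nearest gene was farther away than that of any other tested member, but the difference is not scaled for the size of a change. The Pearson correlation with the nearest gene was 0.987 for Aldh1a1, 0.992 for Adh1, 0.997 for Dhrs3, 0.947 for Crabp2 and 0.931 for Rdh10. The closest to Dhrs3 was Lpin1, encoding a phosphatidate phosphatase, at 0.0903 with 5.87, 29.3 and 29.3 FPKM, and then Apmap at 0.111 and Lrig1 at 0.119. Rdh10 had Mon2 at 0.0501 and Bace1 at 0.0568, and Crabp2 had Eml2, Gm13363 and Bbc3 within 0.141. These distances describe likeness over samples of 3 days and carry no test.

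Markers of other cell types were low on every day. The 5 macrophage markers summed to 1.58 ± 0.141, 1.71 ± 0.204 and 1.84 ± 0.424 FPKM, most of it from Cd68, with Adgre1 at 0 on day 0 and day 8. The 4 endothelial markers summed to 0.767 ± 0.129, 0.257 ± 0.0321 and 0.310 ± 0.0520 FPKM, led by Vwf on day 0 and Pecam1 later. The 3 epithelial markers with a row summed to 0.0733 ± 0.0252, 0.700 ± 0.234 and 0.537 ± 0.153 FPKM, with Krt18 at 0 on day 0 and the most abundant later. The 4 hepatocyte markers summed to 0.160 ± 0.101, 0.250 ± 0.0200 and 0.0867 ± 0.0115 FPKM, with Hnf4a at 0 on day 0 and day 4. The part of these cell types in the members' levels was not tested.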

How the data were processed

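RNA of the 9 samples was sequenced for the authors by a sequencing institute, reads were mapped with HISAT/Bowtie2, and RSEM gave the deposited expected counts and FPKM per gene; versions, genome build and annotation are not given in the sources used here. The labels name a BGIseq kit and DRG where the methods name an Illumina platform and 3T3-L1 cells. Genes absent from a file were set to 0. Expected counts were rounded (29.8% of listed values were not whole) and tested with edgeR 4.0.16 in R 4.3.3, using TMM factors, filterByExpr and 1 coefficient per day over all 9 samples. Levels are the authors' FPKM. Calls needed an adjusted p below 0.05 with an absolute log2 fold change above 1. Named genes were all 9 members, all genes of the wider retinoid list, Aldh1a7 and the 3 nearest profiles of each tested member. A few items under this rule are not reported here. Members and lists were chosen with earlier results of these data known. Tested on simulated data for day 4 versus day 0 (12967 genes), the test recovered 200 of 200 changed genes with 2 false calls. The changed genes were all well counted and clearly past 2-fold, with the same spread set for every gene. The simulation therefore does not cover genes of low count or changes near 2-fold. Alternatives used DESeq2 1.42.0, limma 3.58.1, other scalings, filters and fits without 1 sample. Promoters came from RefSeq (GRCm38.p6) and shared stretches from GENCODE vM21 transcripts. Limits from counts cover counting error only.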

Additional observations from a re-analysis of the deposited data

How the results depend on the processing

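The early and whole-process rises of Adh1, Aldh1a1 and Dhrs3 and the late fall of Adh1 kept their direction under every alternative that was run, and the calls changed in 2 cases, both for Aldh1a1. Its whole-process log2 fold change was 0.90 with limma on log2(FPKM + 1), under the 2-fold threshold (adjusted p = 2.14e-06). With the Aldh1a7 counts added, an alternative chosen after seeing the data, the late value of the pair was -0.92. This left 1 member called downregulated late in place of 2, but the sum mostly follows Aldh1a7 and cannot test Aldh1a1 alone. With no filter on low counts, 4 members were called upregulated early in place of 3 (Stra6 added) and 1 member (Aldh1a3) downregulated, and without the fold threshold 1 (Rdh10), in place of 0. For the wider retinoid list, limma on log2(FPKM + 1) called 2 upregulated late in place of 6 and 10 over the whole process in place of 16. Whole-process downregulated calls, 2 in the main test, came to 1 with at least 10 counts in every sample and 1 with either limma pseudocount. Without the fold threshold the list had 23 upregulated early in place of 15, 14 upregulated and 10 downregulated late, and 6 downregulated over the whole process. Leaving out 1 sample in turn gave 0 to 2 late downregulated calls in place of 0, with 1 without day 4 replicate 1 (Bco1) and 2 without day 8 replicate 1 (Bco1 and Rdh9). No other count moved by over 1.5 times. Of the 50-base stretches of Rdh9, 68.3% recur in other genes, so its value is uncertain. Dhrs9 was called upregulated late without day 4 replicate 1, day 4 replicate 2 or day 8 replicate 1. Rdh5, Aox3 and Ces1d each lost their late call without at least 1 of the samples.

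No pairing of the samples by replicate number was visible. Deviations of same-numbered samples correlated between -0.0348 and 0.0750 (mean 0.0308), against a mean of -0.0154 for different numbers. Whether same-numbered samples shared a culture or batch was not tested. With a replicate block, 3 members were called upregulated early, 2 downregulated late and 3 upregulated over the whole process, and no count in either list changed. Scaling by library size alone moved the median of all genes by -0.11 over the whole process on the log2 scale. The filter on low counts left Rbp4, Stra6, Crabp1 and Aldh1a3, with at most 8 counts per sample, out of the main test.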

Other observations

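When all genes with a count were fitted, 2 of the 4 members that failed the filter passed the adjusted p threshold in the early phase, Stra6 with a log2 fold change of 2.48 (edgeR, adjusted p = 0.0175) and Aldh1a3 with -2.33 (edgeR, adjusted p = 0.0268). These fitted values rest on at most 8 counts per sample and depend on the prior count. Crabp1, at 0 in all day 4 and day 8 samples, gave adjusted p = 0.0966 in the same edgeR fit.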
